A study of Sus scrofa domesticus with 36 samples.

Results

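PLIN1, PLIN4 and CIDEC code for proteins that sit on the lipid droplet, and their RNA was measured in backfat and back muscle of the same young pigs. The genes were taken by symbol. The pig Ensembl identifiers ENSSSCG00000001844 (PLIN1), ENSSSCG00000013512 (PLIN4) and ENSSSCG00000011557 (CIDEC) each matched 1 row, so 3 of the 25322 genes of the count table are described. The adipose group was 18 libraries of subcutaneous backfat, cut between rib 8 and the last rib. The muscle group was 18 libraries of longissimus dorsi. Each of 18 pigs, named here as in the labels (Sample_889 and so on), gave 1 library of either kind, so the tissues were compared over the same animals. The pigs were a Danbred 600 by Newsham NC32 cross, born at a commercial farm and killed 3 weeks after weaning. Both groups share this background, and no treatment or engineered allele is named. The breed label gives the sire line as NC32 in 1 sample and counts up to NC71 in another, and the age label of 16 to 17 days names the stage weaning, which does not match 3 weeks after it. The submitters picked 9 slow growers (up to percentile 10) and 9 pigs between percentiles 60 and 70 out of 1054. The class of each animal is not in the labels used here, so growth was not compared.

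A lipid droplet is a core of triglyceride and sterol ester under a single layer of phospholipid, and its protein coat governs which enzymes reach the core. In mouse and human fat cells, perilipin 1 (PLIN1) coats the droplet and holds ABHD5, the activator of the lipase PNPLA2, until protein kinase A phosphorylates the coat and lipolysis starts. Perilipin 4 (PLIN4) has a long repetitive amphipathic helix, covers small and newly formed droplets, and is known from white fat, heart and skeletal muscle in mice. CIDEC, called Fsp27 in mice, gathers at the contacts between droplets and passes lipid from the smaller to the larger one, which is how white adipocytes come to hold a single large droplet.

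Levels are given as CPM, the count of a gene divided by the library's total and brought to a common scale by trimmed-mean factors. The adipose libraries held 2990913 to 5373406 gene counts and the muscle libraries 4716541 to 6216459. CPM are not corrected for gene length, so levels were compared between tissues and pigs and not between genes. The tissue labels were checked against marker genes. The 7 muscle fibre genes found in the table summed to 117 to 24852 CPM in the adipose libraries (median 1197) and to 65875 to 433177 CPM in the muscle libraries (median 260786). Sample_731 had the most of them in backfat. In adipose PPARG, the master regulator of fat cells, averaged 76.9 ± 18.6 CPM, and in muscle 4.48 ± 2.06 CPM (SD, n = 18 each). The adipocyte markers ADIPOQ, FABP4 and LEP were not analysed here, because no row matched their symbols.

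PLIN1 was far higher in backfat than in muscle. It had a lowest value of 288, a median of 456 and a highest value of 699 CPM in adipose, against 1.44, 3.61 and 29.6 CPM in muscle. Every adipose library stood above every muscle library. Adipose averaged 460 ± 108 CPM and muscle 5.45 ± 6.42 CPM (SD, n = 18 each). PLIN1 was 83.9-fold higher in adipose (log2 difference 6.39, SE 0.31, adjusted p = 4.65e-21, edgeR quasi-likelihood test with Benjamini-Hochberg adjustment), and 18 of the 12542 genes tested had a larger log2 difference in favour of adipose. The edgeR test here and below used tissue alone and not the pairing of libraries by pig. The muscle values of PLIN1 rest on few reads. Raw counts of PLIN1 in muscle ran from 5 to 103 with a median of 11.25, and the count of 5 has an exact Poisson interval of 1.62 to 11.7 at 95%, which covers counting error only.

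CIDEC had the same kind of distribution at a lower count. Its lowest, median and highest values were 43.3, 96.2 and 297 CPM in adipose, against 0.624, 2.05 and 19.9 CPM in muscle. These groups did not overlap. Adipose averaged 119 ± 65.9 CPM and muscle 3.15 ± 4.36 CPM (SD, n = 18 each). CIDEC was 37.3-fold higher in adipose (log2 difference 5.22, SE 0.34, edgeR adjusted p = 7.55e-17), with 62 tested genes further towards adipose. Raw muscle counts of CIDEC ran from 2.5 to 69, with a median of 5.75. In whole tissue, fewer fat cells and less RNA of these genes per cell cannot be told apart.

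PLIN4 behaved differently, with levels of the same order in both tissues. It had 201, 363 and 671 CPM (lowest, median and highest) in adipose, against 116, 256 and 492 CPM in muscle. The ranges overlapped between 201 and 492 CPM. Adipose averaged 375 ± 129 CPM and muscle 283 ± 97.0 CPM (SD, n = 18 each). The difference was 1.32-fold in favour of adipose and passed the test (log2 difference 0.40, SE 0.16, edgeR adjusted p = 0.0183). PLIN4 was higher in backfat in 14 of 18 pigs. The other 4 pigs had more in muscle, and in Sample_186 the gap was widest, with 336 CPM in adipose and 492 CPM in muscle. Sample_735 had 268 CPM in adipose and 330 CPM in muscle. In Sample_659 and Sample_998 the tissues were closer, with 201 and 230 CPM in adipose and 222 and 237 CPM in muscle. Sample_231 was the opposite extreme, with 519 CPM in adipose and 116 CPM in muscle. The PLIN4 locus overlaps that of its neighbour HDGFL2, and whether reads of HDGFL2 were counted for PLIN4 was not tested.

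All 3 genes were thus called higher in adipose, a share to be read against the 46.7% of tested genes called in that direction and the 85.9% called in either. All 18 adipose libraries stood above all 18 muscle libraries, as for PLIN1 and CIDEC, for 14.8% of tested genes. Adipose was above muscle in at least 14 of 18 pigs for 45.6%. PLIN4 lay at percentile 57.7 of all log2 differences, close to the median gene, which stood at 0.14. The difference of PLIN4 depends on scaling between the tissues. With library totals alone the median gene moved to 1.505 and PLIN4 to 1.77, and without the 4 pigs whose backfat held the most ACTA1, a skeletal muscle actin, its log2 difference was 0.37 with an edgeR adjusted p of 0.0673.

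**Figure D1:**
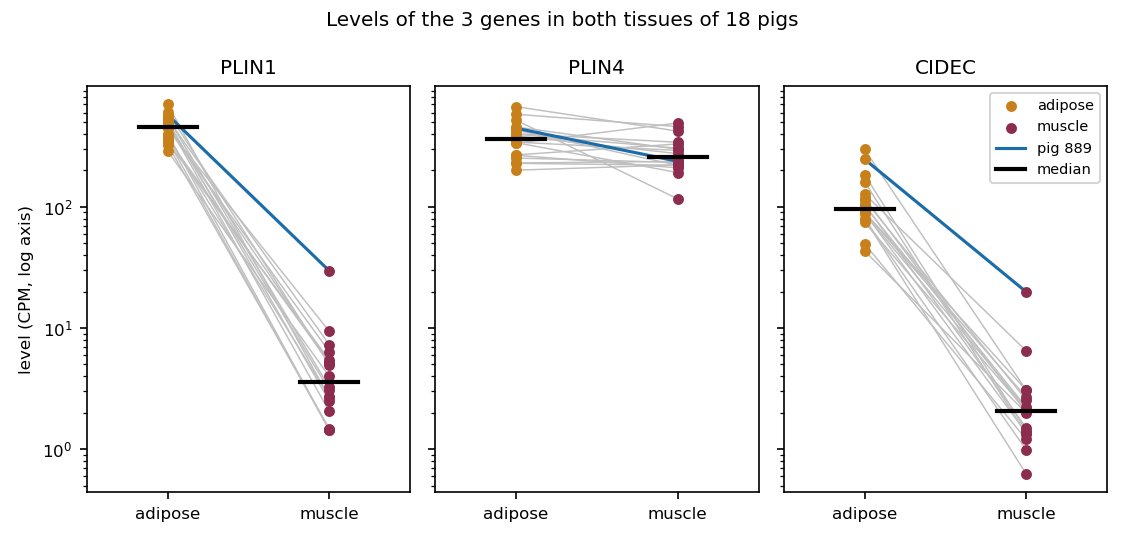
Level of each gene in CPM (log axis) in the adipose and muscle library of 18 pigs. Points are libraries, thin lines join the libraries of 1 pig, black bars are medians and the blue line is Sample_889. PLIN1 and CIDEC have no overlap between tissues, and PLIN4 overlaps with medians of 363 CPM in adipose and 256 CPM in muscle.

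The muscle level as a share of the same pig's backfat level put these differences on 1 scale. For PLIN1, muscle held 0.36% to 5.16% of the adipose level, with a median of 0.761%. For CIDEC it held 0.771% to 8.04%, with a median of 2.20%. For PLIN4 it held 22.4% to 146%, with a median of 79.0%. PCK1, which codes for an enzyme on the route to glycerol phosphate for triglyceride in fat cells, was like PLIN1 in this respect. It was at 0.339% to 1.95% with a median of 0.736%.

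Ratios of a pair of genes within a library do not depend on the scaling between libraries, and their difference between tissues does not depend on gene length. The log2 ratio of PLIN1 to PLIN4 counts was 0.34 ± 0.32 in adipose and -6.04 ± 1.17 in muscle (SD, n = 18 each). It was higher in adipose in 18 of 18 pigs, by 6.37 on the log2 scale (SE 0.29), or 82.9-fold. The log2 ratio of CIDEC to PLIN4 was -1.75 ± 0.72 in adipose and -6.84 ± 1.28 in muscle, a difference of 5.09 (SE 0.25) in the same direction in 18 of 18 pigs. PLIN1 also differed from CIDEC. Their log2 ratio was 2.09 ± 0.59 in adipose and 0.80 ± 0.59 in muscle, so the tissue difference of PLIN1 exceeded that of CIDEC by 1.28 (SE 0.15), or 2.43-fold, in 18 of 18 pigs. Each of these 3 differences had p = 2e-05 in a two-sided sign-flip permutation test over pigs, also after adjustment over the 3 pairs.

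**Figure D2:**
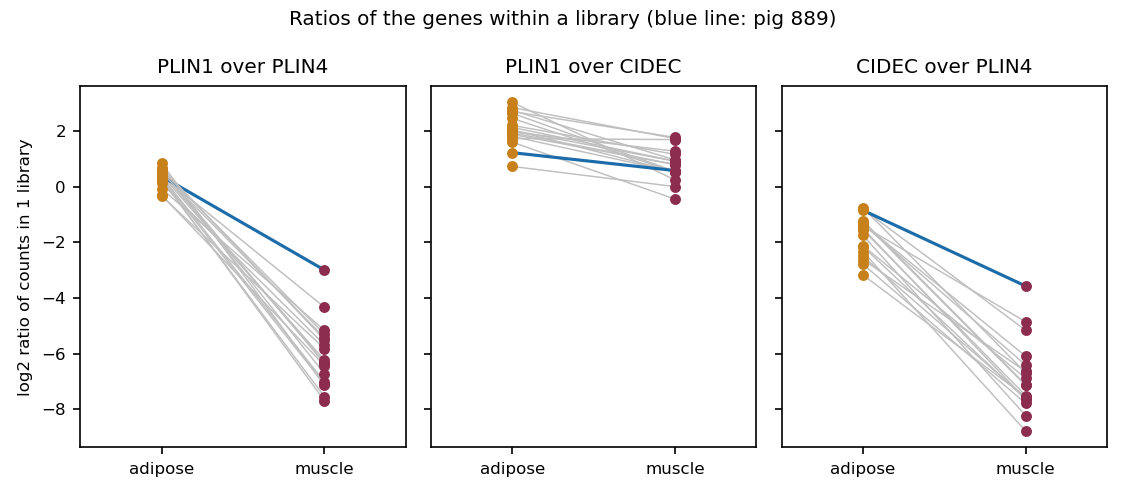
Log2 ratio of the counts of a pair of genes within 1 library, adipose on the left and muscle on the right of each panel, with lines joining the libraries of 1 pig. The ratios to PLIN4 separate the tissues with no overlap, and the PLIN1 to CIDEC ratio is higher in adipose by 1.28 on average.

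The genes also differed in how much they varied among pigs. In adipose the SD of log2 CPM was 0.34 for PLIN1, 0.49 for PLIN4 and 0.71 for CIDEC, while counting error alone gives about 0.026, 0.029 and 0.055. From the lowest to the highest pig this is a span of 2.42-fold for PLIN1, 3.34-fold for PLIN4 and 6.88-fold for CIDEC. Sample_231 and Sample_889 had the most CIDEC in backfat, with 297 and 247 CPM. In muscle the SD was 1.004 for PLIN1, 0.50 for PLIN4 and 0.96 for CIDEC, where counting error alone gives about 0.45, 0.051 and 0.61.

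The muscle library of Sample_889 stood apart. It held 29.6 CPM of PLIN1 and 19.9 CPM of CIDEC, while the next highest muscle library, from Sample_391, held 9.40 and 6.48 CPM. Its PLIN4, at 237 CPM, was inside the range of the others. Of the adipocyte genes, PCK1 at 13.8 CPM and PPARG at 10.9 CPM were also at their muscle maximum there. The sum of the adipocyte list was not, since it peaked in Sample_656 (2215 CPM, muscle median 1551), with GPD1 alone averaging 1375 CPM in muscle. At their muscle maximum in Sample_889 were the summed fibroblast markers (9042 CPM, muscle median 4656) and the summed leukocyte markers (309 CPM, muscle median 138). Their part in the level of PLIN1 and CIDEC was not tested. Without this pig, muscle averaged 4.02 ± 2.26 CPM of PLIN1 and 2.16 ± 1.32 CPM of CIDEC (SD, n = 17), and the log2 differences in favour of adipose were 6.82 for PLIN1 and 5.69 for CIDEC.

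In backfat, pigs with more PLIN1 had more PLIN4. Spearman's rho was 0.800 (permutation p = 8e-05) and Pearson's r on log2 CPM was 0.760 (permutation p = 0.00028), and r was 0.794 without the 2 libraries farthest from the median of PLIN1. With adjustment over the 12601 genes set against PLIN1 the rho had p = 0.0531, and 0.119 over those set against PLIN4, so it did not pass the threshold of 0.05. Leaving out Sample_231 or Sample_242 brought it under that threshold, and rho stayed between 0.770 and 0.841 when each pig was left out in turn. With PLIN1, CIDEC had rho = 0.406 in backfat (p = 0.0961, adjusted p = 0.690) and r = 0.568 (p = 0.0138, 0.412 without 2 libraries) in the same permutation test. With PLIN4 it had rho = 0.189 (p = 0.451) and r = 0.321 (p = 0.194, 0.132 without 2 libraries).

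In muscle the pair with the highest rho was PLIN1 with CIDEC, at 0.775 (permutation p = 0.00028, adjusted p = 0.182 over the 11702 genes set against PLIN1) and r = 0.851 (p = 5e-05, adjusted p = 0.0366). Over the genes set against CIDEC, the same permutation test gave an adjusted p of 0.556 for rho and 0.467 for r. Neither passed from that side. The r was 0.582 without the 2 libraries farthest from the median of PLIN1, those of Sample_889 and Sample_391. PLIN1 showed no detectable relation to PLIN4 (rho = -0.05, p = 0.837, and r = -0.01, p = 0.971, permutation test). CIDEC and PLIN4 had rho = -0.36 (p = 0.144) and r = -0.30 (p = 0.216). The r without 2 libraries was 0.216 for PLIN1 with PLIN4 and -0.28 for CIDEC with PLIN4.

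The difference between the tissues was itself tested by swapping the tissues within pigs, a test chosen after seeing the data. For PLIN1 with PLIN4, rho in adipose exceeded rho in muscle by 0.852 (permutation p = 0.00364, adjusted over the 3 pairs p = 0.0109), and the adjusted p ran from 0.0042 to 0.0462 when each pig was left out in turn. Without the 4 pigs richest in ACTA1 in backfat it was 0.545 with an adjusted p of 0.0612. For PLIN1 with CIDEC, rho in adipose minus rho in muscle was -0.37 (p = 0.0784, adjusted p = 0.118). For CIDEC with PLIN4 it was 0.547 (p = 0.124). The first of these passed the threshold without Sample_491 (-0.49, adjusted p = 0.0320) and the second without Sample_77 (0.797, adjusted p = 0.0368).

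**Figure D3:**
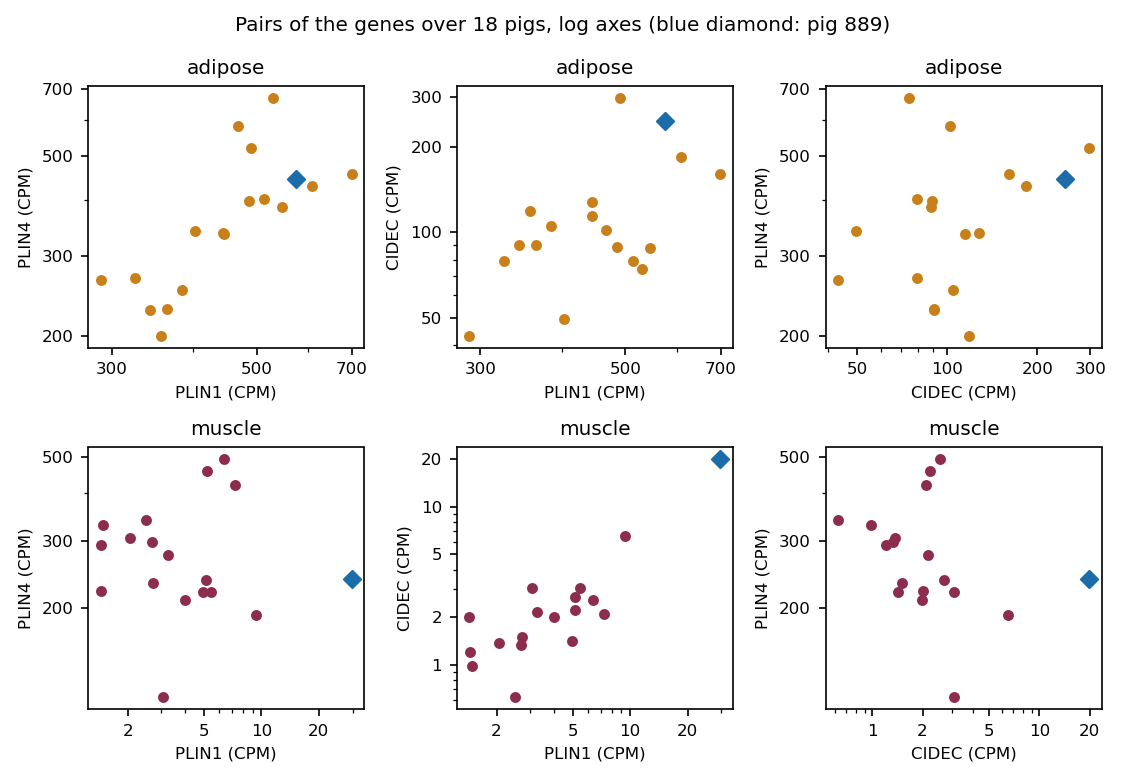
Levels of each pair of genes in CPM (log axes) over 18 pigs, with adipose libraries in the upper row and muscle libraries in the lower row. Each point is a library and the blue diamond is Sample_889. PLIN1 and PLIN4 rise together in adipose (rho = 0.800) and not in muscle (rho = -0.05), where PLIN1 and CIDEC do (rho = 0.775).

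Whether a pig high in one tissue was high in the other was asked for each gene. Over the 11109 genes that could be tested, 59 (0.531%) had a positive rho that passed the threshold, and the median rho was 0.185. None of the described genes was among the 59. CIDEC had rho = 0.476 (permutation p = 0.0477, adjusted p = 0.345) and r = 0.5002 (p = 0.0382), which became 0.188 without the 2 libraries farthest from the median. PLIN4 had rho = 0.325 (p = 0.189) and r = 0.265 (p = 0.288, 0.0900 without 2 libraries). PLIN1 had rho = 0.209 (p = 0.401) and r = 0.288 (p = 0.247, 0.454 without 2 libraries). Their adjusted p values were 0.575 for PLIN4 and 0.744 for PLIN1.

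Among genes with a symbol and at least 10 CPM, the 3 most like PLIN1 over the adipose libraries were AGPAT1, DGAT1 and RNF125. AGPAT1, which adds the second fatty acid to glycerol phosphate, had rho = 0.858 and r = 0.870 (0.896 without 2 libraries), and DGAT1, which adds the last one, had rho = 0.849 and r = 0.800 (0.803 without 2 libraries). RNF125, a ubiquitin ligase, had rho = 0.843 and r = 0.792 (0.724 without 2 libraries). The rho of each of these 3 had an adjusted p of 0.0388 in the permutation test over 12601 genes. There 15 genes (0.119%) passed with a positive rho and 1 with a negative rho. For r the adjusted p in the permutation test was 0.0485 for AGPAT1 and DGAT1 and 0.0695 for RNF125, which did not pass. These calls depended on single pigs. AGPAT1 passed in 8, DGAT1 in 7 and RNF125 in 6 of the 18 fits that left out 1 pig, all 3 being lost without any one of Sample_176, Sample_186, Sample_491, Sample_572, Sample_659, Sample_731, Sample_735, Sample_889 and Sample_998, while the lowest of these rhos was 0.814. The number of genes called with a positive rho was 0 without Sample_186, Sample_491, Sample_572, Sample_659, Sample_731, Sample_735, Sample_889 or Sample_998. It was 2 without Sample_391 or Sample_835, 3 without Sample_176, 5 without Sample_991 and 24 without Sample_242.

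For PLIN4 in adipose the likest genes were COL4A2, a basement membrane collagen (rho = 0.853, r = 0.825, adjusted p = 0.0840), HDGFL2 (rho = 0.851, r = 0.785, adjusted p = 0.119) and ECHDC3 (rho = 0.825, r = 0.798, adjusted p = 0.119). DGAT1 followed closely, at 0.814. Without 2 libraries r was 0.804 for COL4A2, 0.772 for HDGFL2 and 0.869 for ECHDC3. For CIDEC the likest genes were ACO1, POP7 and GALNT17. ACO1, a cytosolic aconitase that also binds iron-responsive RNA, had rho = 0.856 and r = 0.836 (adjusted p = 0.0945, permutation test). POP7, a subunit of ribonuclease P, had rho = 0.843 and r = 0.814. GALNT17, an enzyme of the family that starts O-glycans, had rho = 0.841 and r = 0.887. Without 2 libraries r was 0.752 for ACO1, 0.678 for POP7 and 0.866 for GALNT17. No gene passed for PLIN4 or CIDEC in adipose by Spearman or Pearson (0.0% of 12601 genes), while 676 genes had a positive rho at an unadjusted p under 0.05 with PLIN4 and 566 with CIDEC.

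The lists of lipid genes were set against each of the 3 genes in backfat. All 11 genes of triglyceride and fatty acid synthesis had a positive rho with PLIN1 (median 0.449, highest in AGPAT1) and with PLIN4 (median 0.412, highest in DGAT1), as did all 10 genes of lipolysis (medians 0.510 and 0.447). The median over all genes was -0.02 with PLIN1, -0.02 with PLIN4 and 0.034 with CIDEC. Within lipolysis, LIPE, the hormone-sensitive lipase, had rho = 0.740 with PLIN1 and 0.668 with PLIN4, but 0.373 with CIDEC. CIDEC had a median rho of 0.0619 over the lipolysis genes, of which 7 of 10 were positive, with G0S2, an inhibitor of PNPLA2, at 0.643 and the lipase gene PNPLA3 at 0.633. It had a median of 0.538 over the synthesis genes, of which 9 of 11 were positive. Its highest values there were with ACSL1, which activates long-chain fatty acids (0.792), FASN, the fatty acid synthase (0.697), and ACACA, which makes malonyl-CoA (0.649). FASN had 0.377 with PLIN1 and 0.340 with PLIN4, and SCD, the stearoyl-CoA desaturase, had 0.538 with CIDEC, 0.0093 with PLIN1 and 0.0134 with PLIN4. Of these list genes, AGPAT1 and DGAT1 with PLIN1 were the only calls after adjustment, and the differences between rhos were not tested. The 7 adipocyte identity genes had a median rho of 0.616 with PLIN1, 0.618 with PLIN4 and 0.418 with CIDEC, and 6 of 7 were positive with each. CFD was the exception, at -0.31 with PLIN1, -0.23 with PLIN4 and -0.57 with CIDEC. PPARG had rho = 0.616 with PLIN1, 0.620 with PLIN4 and 0.158 with CIDEC, while CEBPA and TRARG1 had 0.595 and 0.548 with CIDEC. The other droplet coat and biogenesis genes had medians near those of all genes, at 0.0217 with PLIN1 (8 of 15 positive), 0.0485 with PLIN4 (10 of 15) and 0.0114 with CIDEC (8 of 15).

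Other cell types were looked at in the same way. The 7 muscle fibre genes had rhos from -0.06 to 0.084 with PLIN1, from -0.05 to 0.131 with PLIN4 and from 0.040 to 0.162 with CIDEC over the adipose libraries, and none passed the test. The median over 9 fibroblast genes was 0.0547 with PLIN1, 0.0279 with PLIN4 and 0.189 with CIDEC, and over 7 leukocyte genes it was -0.24 with PLIN1, -0.01 with PLIN4 and -0.06 with CIDEC. Over 5 skin epithelium genes the median was -0.47 with PLIN1 (0 of 5 positive), -0.40 with PLIN4 (1 of 5) and -0.06 with CIDEC (1 of 5). This list is a poor measure of skin here. Its 6 genes in the table summed to a median of 137 CPM in adipose and 147 CPM in muscle. Of them, 3 were higher in adipose, 1 (TP63, log2 difference -3.85) in muscle, and 2 did not pass the edgeR test. Over 4 endothelial genes it was 0.261 with PLIN1 (3 of 4 positive), 0.305 with PLIN4 (4 of 4) and -0.33 with CIDEC (0 of 4). The blood list held 2 tested genes, with medians of 0.127 with PLIN1, -0.01 with PLIN4 and 0.315 with CIDEC. None of these genes passed after adjustment. With the level of the muscle gene ACTA1 removed, rho in adipose was 0.787 for PLIN1 with PLIN4. It was 0.447 for PLIN1 with CIDEC and 0.234 for CIDEC with PLIN4. The part of the other genes in the rhos among the 3 described genes was not tested.

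**Figure D4:**
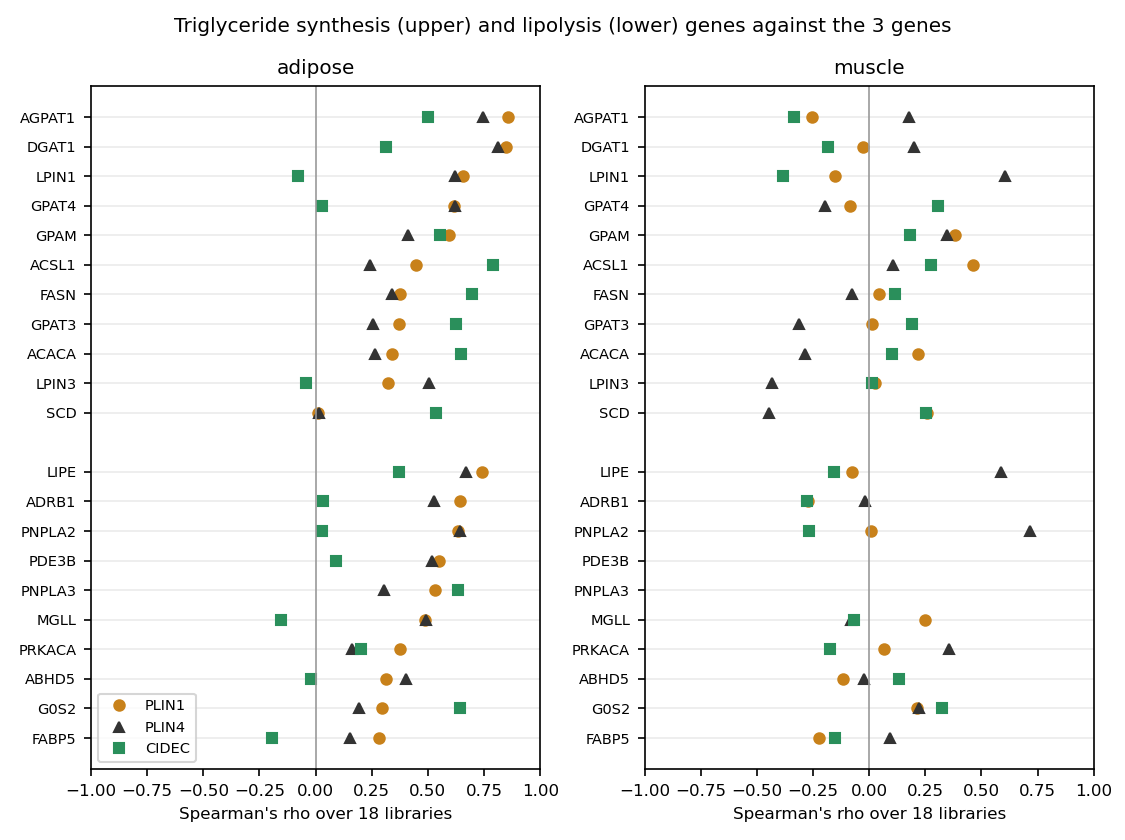
Spearman's rho of each gene of triglyceride synthesis (upper block) and lipolysis (lower block) with PLIN1 (circles), PLIN4 (triangles) and CIDEC (squares) over the 18 adipose libraries (left) and the 18 muscle libraries (right). In adipose all synthesis genes are right of 0 for PLIN1 and PLIN4, with AGPAT1 highest for PLIN1 (0.858) and ACSL1 for CIDEC (0.792). PDE3B and PNPLA3 are missing from the muscle panel, since they were under 1 CPM in too many libraries.

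In muscle the median rho of these lists with PLIN1 was close to that of all genes. It was 0.0258 over the 11 synthesis genes and -0.04 over the 8 lipolysis genes that could be tested, against -0.03 over all genes. The genes above 10 CPM that were most like PLIN1 in muscle were MICAL1, an actin-oxidising enzyme (rho = 0.841, r = 0.781), TPM4, a tropomyosin of non-muscle cells (rho = 0.800, r = 0.765), and LMNA, which codes for lamins A and C (rho = 0.789, r = 0.803), each with an adjusted p of 0.156 in the permutation test on rho. Without 2 libraries r was 0.755 for MICAL1, 0.707 for TPM4 and 0.726 for LMNA. All 9 fibroblast genes had a positive rho with PLIN1 there (median 0.494), COL1A2 highest at 0.666 (adjusted p = 0.255, permutation test). So did 7 of 7 leukocyte genes (median 0.212), 4 of 4 skin epithelium genes (0.150) and 6 of 7 muscle fibre genes (0.263). Of 4 endothelial genes 2 were positive (median -0.06). None of these genes passed after adjustment. PCK1, at 2.65 CPM in muscle (median raw count 6), had rho = 0.820 with PLIN1 and 0.742 with CIDEC (adjusted p = 0.156 and 0.556, permutation test). It was the highest of 6 adipocyte identity genes, whose median rho was 0.290 with PLIN1 and 0.250 with CIDEC. With each, 5 of 6 were positive, and the lowest were CFD with PLIN1 (-0.26) and ADIPOR2 with CIDEC (-0.15). For CIDEC in muscle the likest genes above 10 CPM, NDUFAF7 (an assembly factor of respiratory complex I), CDC37L1 (a relative of a kinase co-chaperone) and SLC39A7 (a zinc transporter), had rhos of 0.719, 0.713 and 0.709 with an adjusted p of 0.556. No gene passed for PLIN1 or CIDEC in muscle by Spearman (0.0% of 11702 genes), where 718 and 455 genes had a positive rho at an unadjusted p under 0.05. By Pearson 49 genes passed for PLIN1 and 0 for CIDEC.

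By Spearman, PLIN4 was the one of the 3 with calls in muscle, where 23 of 11702 genes (0.197%) passed with a positive rho. A further 8 passed with a negative rho. HDGFL2, which codes for a chromatin reader, was the likest of all (rho = 0.924, r = 0.911, 0.914 without 2 libraries). FZD4, a Wnt receptor, followed (rho = 0.891, r = 0.798, 0.745 without 2 libraries). Next came PRKDC, the catalytic subunit of DNA-dependent protein kinase (rho = 0.864, r = 0.811, 0.710 without 2 libraries). Each of these 3 rhos had an adjusted p of 0.0270 in the permutation test. Without Sample_186 or Sample_491 no gene was called with a positive rho, and PRKDC was also lost without Sample_231, Sample_835 or Sample_998. The count of positive calls was 2 without Sample_231, 4 without Sample_998, 151 without Sample_391 and 172 without Sample_242. It was 9 to 15 without any one of Sample_176, Sample_572, Sample_656, Sample_731, Sample_735, Sample_835 and Sample_911. The lipase gene PNPLA2 had rho = 0.715 with PLIN4 in muscle (adjusted p = 0.0790) and LIPE had 0.589 (adjusted p = 0.169). Over the 8 lipolysis genes the median was 0.159, with 5 positive and MGLL lowest at -0.08. The median was -0.08 over the 11 synthesis genes (5 positive) and -0.11 over the 6 adipocyte identity genes (0 positive). Over 7 leukocyte genes it was -0.29 (0 positive) and over 9 fibroblast genes -0.26 (3 positive).

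HDGFL2 is the neighbour of PLIN4. In the RefSeq annotation of Sscrofa11.1 the loci of HDGFL2 and PLIN4 overlap, with PLIN5 on the other side of PLIN4 and apart from it. No strand setting or annotation of the counting is given. Reads set aside as ambiguous made up 0.567% to 0.871% of all counts per adipose library and 0.577% to 0.938% per muscle library. Whether reads of 1 of these genes were counted for the other was not tested. The high rho between PLIN4 and HDGFL2 in both tissues is uncertain for that reason. So are the level of PLIN4 in either tissue, its ratios to PLIN1 and CIDEC, and its other rhos. In adipose HDGFL2 averaged 226 ± 70.6 CPM and in muscle 191 ± 47.5 CPM (SD, n = 18 each), with a log2 difference of 0.25 (SE 0.13, edgeR adjusted p = 0.0764), and it was higher in adipose in 14 of 18 pigs, as PLIN4 was. PLIN1 and CIDEC each overlap 1 long non-coding RNA locus, and neither locus was matched to a row of the table.

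Of the relatives, PLIN5, which links droplets to mitochondria in oxidative tissue, ran the other way. It had 2.07, 5.01 and 10.5 CPM (lowest, median and highest) in adipose, against 23.5, 45.3 and 166 CPM in muscle, with no overlap. How many tested genes had no overlap in this direction was not counted for PLIN5. Its log2 difference was -3.40 (SE 0.24, edgeR adjusted p = 6.13e-16). PLIN5 had rho = 0.486 with PLIN4 in adipose and 0.319 in muscle, neither of which passed after adjustment. CIDEB, the liver member of the CIDE family, averaged 0.592 CPM in adipose and was at 0 after rounding in every muscle library, and it was too low to be tested. PLIN2, PLIN3 and CIDEA were not analysed here.

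The fat cell genes around them were mostly higher in backfat. Of 7 adipocyte genes tested, 6 were higher in adipose and 1 in muscle (median log2 difference 4.08, against 0.14 over all genes). PCK1 (6.81), the GLUT4 trafficking gene TRARG1 (6.19) and the transcription factor genes CEBPA (4.35) and PPARG (4.08) stood near PLIN1 and CIDEC, CFD, which codes for adipsin, was at 1.85 and the adiponectin receptor gene ADIPOR2 at 0.68. GPD1, a glycerol phosphate dehydrogenase that glycolytic muscle also uses, was at -3.89. Of 10 lipolysis genes, 8 were higher in adipose and 1 in muscle (median 1.40), with LIPE at 2.61, ABHD5 at 1.78, MGLL, the monoglyceride lipase, at 1.03, PNPLA2 at 0.75 and the fatty acid carrier gene FABP5 at 0.46. PRKACA, the catalytic subunit of protein kinase A, was higher in muscle (-2.76). Every value named here passed the edgeR test, and TRARG1, CEBPA, PPARG, ABHD5 and MGLL were chosen after their values were seen.

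Of 11 genes of triglyceride and fatty acid synthesis, 7 were higher in adipose, 1 in muscle, and 3 missed the threshold (median 1.32). FASN was at 1.97, DGAT1 at 1.90, AGPAT1 at 1.32 and the phosphatidate phosphatase gene LPIN1 at 0.85, which fell to 0.62 with an edgeR adjusted p of 0.0775 without the 4 pigs richest in ACTA1 in backfat. ACSL1 did not pass at -0.07, and stood at 1.32 when scaled by library totals alone. Other droplet coat and biogenesis genes, with the 3 described genes left out of the list, were split. Of 16, 6 were higher in adipose and 9 in muscle, with a median of -0.42. The caveolin genes CAV1 (1.37) and CAV2 (0.89) were higher in adipose. FITM1 (-6.33), which helps to bud droplets in striated muscle, TMEM38A, a cation channel gene of the sarcoplasmic reticulum that was listed here as a droplet gene (-5.73), and the small GTPase gene RAB7A (-1.38) were higher in muscle, though RAB7A was at 0.016 with library totals alone. DGAT1, AGPAT1 and FITM1 were named after their values were seen. The background for these counts is the 46.7% of tested genes called towards adipose and the 39.2% called towards muscle. Genes of PPAR and SREBP regulation were split too, with 5 of 11 higher in adipose and 4 in muscle. KLF4, an early adipogenic factor gene, was at 1.65 and the nuclear receptor gene PPARD at -0.50, while FOXO1, an insulin-regulated factor gene (-0.47), and NR1H3, which codes for a liver X receptor (0.17), did not pass. With library totals alone PPARD and FOXO1 turned to 0.86 and 0.74. MLXIPL, which codes for the glucose-sensing factor ChREBP, was at 3.85 and was chosen after its value was seen, and PPARGC1A, a coactivator of mitochondrial genes, was at -3.83.

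**Figure D5:**
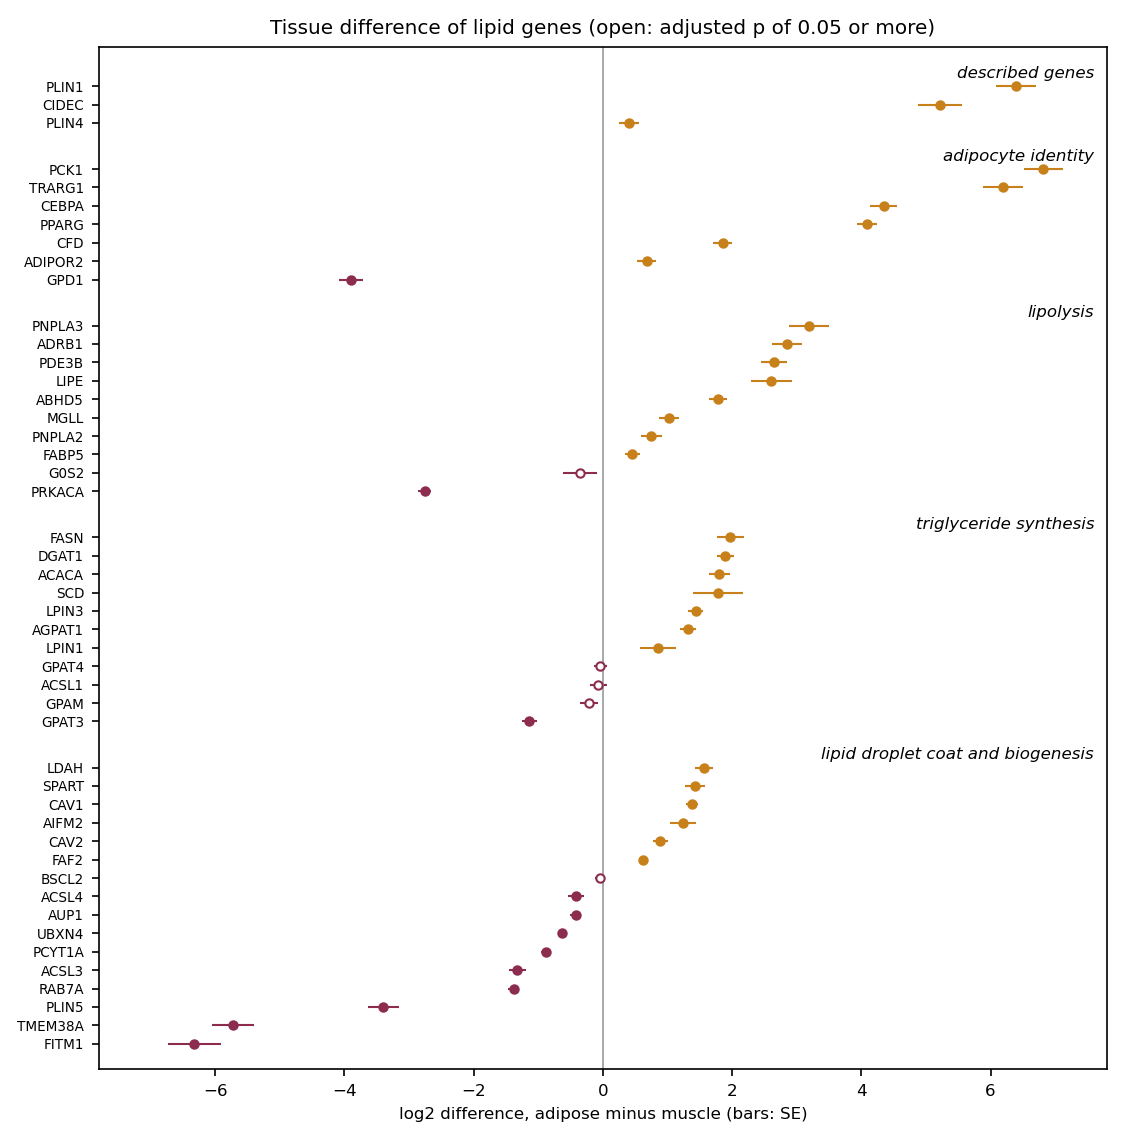
Log2 difference, adipose minus muscle, with its SE for the 3 described genes and for the tested genes of 4 lists, filled where the edgeR adjusted p was under 0.05. Positive values mean higher in adipose. PLIN1 (6.39) and CIDEC (5.22) lie with PCK1 and TRARG1, and PLIN4 (0.40) lies with ADIPOR2 and FABP5.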

How the data were processed

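Per the labels' protocols, MagMAX-isolated RNA went into TruSeq libraries, read in 100-nt pairs on a HiSeq 2000. The authors deposited 1 table of expected counts per gene, not normalised, in steps of 0.5 (35.1% of values not whole). The tools were GSNAP and HTSeq, per the submitters' processing notes. Versions, the genome build, annotation and strand setting were not given in the sources used here. Counts were rounded to whole numbers, ties to even. A further 5 lines name no gene and were left out, and counts outside annotated genes averaged 34.5% per adipose and 19.9% per muscle library. Columns left unused numbered 0. A symbol was found for 11804 genes.

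Tissues were compared with edgeR 4.0.16 in R 4.3.3 (quasi-likelihood, robust, tissue alone, trimmed-mean factors, default filter), with Benjamini-Hochberg adjustment and a threshold of 0.05. DESeq2 1.42.0 was an alternative. Correlations used log2 CPM (prior count 2) of genes that reached 1 CPM in 15 or more of 18 libraries, with 100000 two-sided permutations in Python 3.11.15. Within-library ratios added 0.5 to the counts and were tested by 100000 sign flips. The edgeR fits, the Spearman permutation tests and the sign-flip test were tried on simulated data. The tissue swap of rho and DESeq2 were not. Every test adjusts over all genes it ran on, except that the 3 member pairs form families of their own.

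Libraries with 1 number come from 1 pig, per the sample titles, so numbers pair the samples. Deviations of a pig's own pair correlated at 0.0996 to 0.368, against -0.01 on average between pigs. The own muscle library was the best match in 10 of the 18 pigs, so this check does not establish every pair. The genes and lists were chosen with earlier results of these data known. Named genes are the 3 described, the 3 likest per gene and tissue with at least 10 CPM, up to 4 per list with the highest mean CPM, neighbours, and perilipin and CIDE relatives, of which the text gives those that bear on a result. The tissue swap of rho and the fits without 4 or 2 pigs were chosen after seeing the data. Symbols and neighbours come from RefSeq tables of Sscrofa11.1, and no sequence was used.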

Additional observations from a re-analysis of the deposited data

Results flagged for a closer look

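The relation of PLIN1 to PLIN4 differed between the tissues of the same pigs. Spearman's rho over 18 pigs was 0.800 in adipose and -0.05 in muscle, a difference of 0.852 (permutation p = 0.00364, adjusted over the 3 pairs p = 0.0109, tissues swapped within pigs). The swap test was chosen after seeing the data and was not tried on simulated data. Its adjusted p was 0.0612 without the 4 pigs richest in ACTA1 in backfat (difference 0.545). It was 0.0408 with library totals alone and 0.0489 without Sample_572 and Sample_735. In muscle PLIN1 had 5 to 103 raw counts, so its rank among pigs carries more counting error there than in adipose, and the part of this in the difference was not tested.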

How the results depend on the processing

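With the pig as a replicate block, which the pairing allows, the log2 difference was 6.69 for PLIN1, 0.40 for PLIN4 (adjusted p = 0.00772) and 5.40 for CIDEC, with 5944 genes higher in adipose and 4944 in muscle, and it changed no call of the 3 genes. Library totals alone gave 10148 genes higher in adipose and 1520 in muscle, and no filter on low counts gave 9077 higher in adipose. The signs of RAB7A (0.016), ACSL1 (1.32), PPARD (0.86) and FOXO1 (0.74) turned with library totals, and FOXO1 was at 0.00884 without Sample_572 and Sample_735. Without Sample_731, Sample_391, Sample_176 and Sample_911, PLIN4 was at 0.37 and not called. Leaving out 1 pig gave 6.30 to 6.82 for PLIN1, 0.32 to 0.48 for PLIN4 and 5.08 to 5.69 for CIDEC, all called.

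Genes called between tissues numbered 209 by Pearson, 291 with library totals, 148 with 1 CPM in 5 libraries, 21 with ACTA1 removed, 3 without the 4 pigs, 31 without Sample_572 and Sample_735, and 23 to 74 without 1 pig. The own-pair rho of PLIN1 was -0.0031 with library totals. Genes called with a positive relation to PLIN1 in adipose numbered 0 with library totals, without the 4 pigs and without the 2 pigs, and 0 to 24 without 1 pig. The counts for PLIN4 and for muscle that follow are also of positive relations. With PLIN4 in adipose they numbered 16 with ACTA1 removed, 8 without the 4 pigs and 0 to 5 without 1 pig. With PLIN1 in muscle 49 passed by Pearson. With PLIN4 in muscle it was 136 by Pearson, 137 with library totals, 58 with the library total removed, 4 without Sample_572 and Sample_735, and 0 to 172 without 1 pig. The rho of PLIN1 with PLIN4 in muscle turned to 0.257 without the 4 pigs, 0.032 without Sample_572 and Sample_735 and 0.083 without Sample_391, within -0.18 to 0.083 without 1 pig. PLIN1 with CIDEC in muscle passed by Pearson (0.851) over the genes set against PLIN1 and not over those set against CIDEC. PLIN1 with PLIN4 in adipose ran from 0.770 to 0.841 without 1 pig. The rho difference of PLIN1 with PLIN4 was 0.545 without the 4 pigs. Without 1 pig it ran from 0.686 to 0.995, that of PLIN1 with CIDEC from -0.49 to -0.27 and that of CIDEC with PLIN4 from 0.363 to 0.797. Of the values of single genes under these alternatives, 2231 kept their direction and their side of the threshold, 56 lost the call and 18 gained one. The cause of these changes was not tested. The raw counts of PLIN1 and CIDEC in muscle, with medians of 11.25 and 5.75, limit the precision of their levels there.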
